A study of Mus musculus with 4 samples.

Results

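The early response of cultured SVEC cells to lipopolysaccharide was taken from the 2 arrays labelled 4 h, which are 2 of the 4 arrays in the series. SVEC is an established mouse endothelial line, and the series as a whole follows its response to lipopolysaccharide (LPS) at 4 h and at 24 h. On the first 4 h array RNA of LPS-treated cells carried Cy5 and RNA of untreated control cells carried Cy3, and on the second, a dye reversal, the dyes were exchanged. Both arrays were hybridised with amplified RNA on Operon V1 long oligonucleotides. LPS was given at 50 ng/ml per the labels of 3 of the 4 arrays, and the label of the 4 h dye reversal states no dose. The labels name no separate cultures, so the 4 h arrays were taken as 1 RNA pair measured on both dye orientations. All 11138 genes with a named spot were described, as the mean log2 ratio of LPS over control after each array had been centred on its median spot and the reversed array turned in sign.

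LPS is a component of the outer membrane of Gram-negative bacteria. It is bound by Cd14 and by the complex of Tlr4 with Ly96 (MD-2), and the adaptor Myd88 then leads to NF-kB and MAP kinases, while a separate route from Tlr4 leads to type I interferon and to the interferon-induced genes. Activated endothelium is known for chemokines, leukocyte adhesion molecules and class I antigen presentation, and feedback inhibitors such as Nfkbia and Tnfaip3 limit the signal.

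The deposited table held 1 log2 ratio per spot and array and no intensities, so every value below compares LPS with control for the same gene, and no level could be given. The ratio's direction is likely only, from the labels that place LPS in Cy5 on the unreversed array. The opposite convention would turn every sign. As deposited the arrays correlated at -0.23 over all spots, and after turning at 0.23 over the same spots. Averaged per gene they correlated at 0.48 (Spearman 0.49), and genes are not independent replicates. The SD over spots was 1.44 and 1.43. The SD given with each mean is the spread between the arrays, and a small SD does not mean that the spots of a gene agree. It is technical, holds no variation between cultures, and allows no test. The number of arrays limits the precision.

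A gene was counted as higher or lower when the size of its mean log2 ratio reached 1, which is 2-fold, and both arrays reached 1.5-fold on the same side. By this rule 973 of 11138 genes were higher with LPS (8.74%) and 643 lower (5.77%), 1616 in all (14.5%). The higher genes also reached further, since 364 of them were at least 4-fold higher and 124 at least 8-fold, against 166 and 57 of the lower ones. At 16-fold the counts were 36 and 17. Most genes lay near the centre, and 8937 of 11138 (80.2%) had a mean smaller than 1 in size. Both arrays were above 0 for 3476 genes and below 0 for 3826, and they took opposite signs for 3474. When the reversal was left unturned, so that a constant preference for a dye would be counted in place of the treatment, the same rule was met by 204 genes, 105 of them brighter in Cy5 and 99 in Cy3. All these signs are relative to the median spot of each array. With each array centred instead on 58 abundant transcripts, every gene moved down by 1.39 on the log2 scale, 206 genes were higher and 6907 lower, and the share of higher genes among those past the rule went from 60.2% to 2.90%. Genes given below with a mean between 0 and 1.39 therefore turn in sign under that centring, and those above 1.39 do not.

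**Figure D1:**
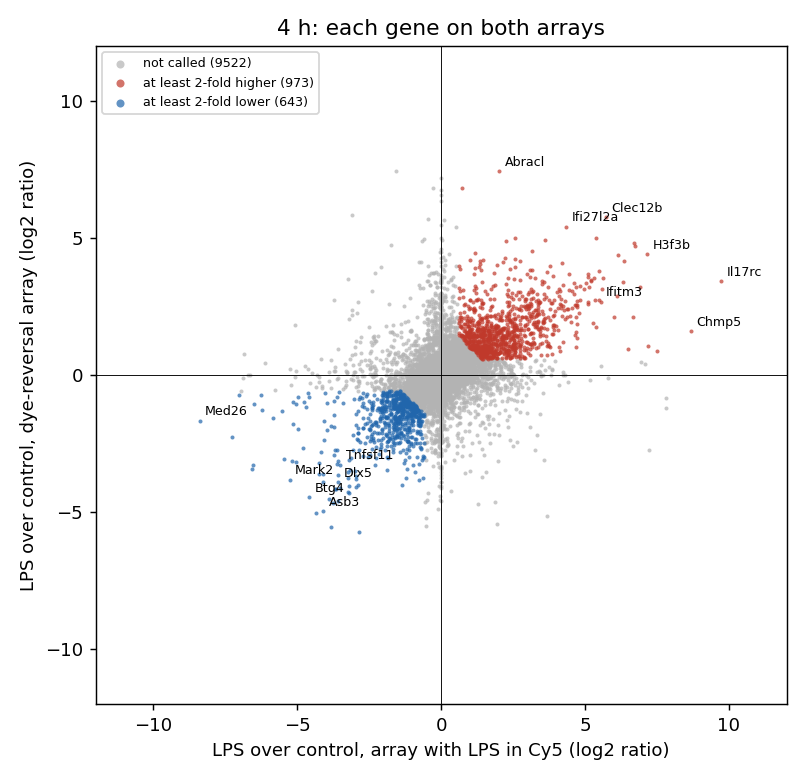
Each point is 1 of 11138 genes, with its log2 ratio of LPS over control on the array with LPS in Cy5 (horizontal axis) and on the dye-reversal array (vertical axis). Red points are the 973 genes past the rule upwards and blue points the 643 downwards, relative to the median spot; Clec12b, Asb3 and Btg4 lie near the diagonal, while Il17rc, Chmp5 and Med26 lie farther out on the unreversed array than on the reversal.

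The highest mean belonged to Il17rc, a subunit of the interleukin-17 receptor. Its spots lay at 10.19 and 9.28 on the unreversed array and at 3.84 and 3.0 on the reversal, for a mean of 6.58 ± 4.47 (SD, 2 arrays). All 4 spots were high, but the arrays differed widely in size. Clec12b, a C-type lectin-like receptor, was even on both arrays, with spots at 5.61 and 5.83 and then at 5.53 and 5.99, and a mean of 5.74 ± 0.03. Next to these in rank stood transcripts that most cells hold in quantity. H3f3b, a histone H3.3 gene, lay at 7.16 on the first array and 4.41 on the reversal (5.79 ± 1.94). Ppia, the cyclophilin A gene, lay at 6.69 and 4.83 (5.76 ± 1.32). Pabpc1, which binds the poly(A) tail of mRNAs, lay at 6.74 and 4.72 (5.73 ± 1.43). In each of these the array with LPS in Cy5 gave the larger ratio, as it did for 688 of the 973 higher genes (70.7%) and for 338 of the 643 lower ones (52.6%).

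The other genes among the 15 highest were Atp5b (5.06), Ifi27l2a (4.87), Rpl6 (5.27), Rps3 (4.85), Krtap4-6 (5.20), Eif4g2 (4.64), Ppic (4.58), Rgs19 (5.25), Chmp5 (5.14) and Abracl (4.73). They include ribosomal proteins, an ATP synthase subunit, a translation factor, a second cyclophilin and an interferon-induced gene. Krtap4-6, a keratin-associated protein gene, was even on both arrays (5.39 and 5.0). Chmp5, of the membrane-remodelling ESCRT machinery, was not, at 8.68 and 1.61. Abracl was uneven in the other direction, at 2.01 and 7.44.

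Among the lower genes, Med26, a subunit of the Mediator complex that links transcription factors to RNA polymerase II, had the lowest mean, -5.02 ± 4.76. Its spots lay at -11.48 and -5.29 on the unreversed array and at -1.68 and -1.64 on the reversal, so its size rests largely on 1 spot. Ldhd, a mitochondrial lactate dehydrogenase gene, followed at -5.01 ± 2.24. Ndel1, which regulates the motor dynein, lay at -4.91 ± 2.32 and is measured by 2 oligonucleotides, whose means were -6.56 and -3.25. Btg4 had the closest arrays among the 15 lowest, with spots at -4.50 and -4.66 on the first array and -4.62 and -4.27 on the reversal (mean -4.51 ± 0.10). Mark2, a kinase of microtubule-associated proteins, lay at -4.54 ± 1.02, Asb3 at -4.53 ± 0.62, Ank at -4.21 ± 0.63 and Gata5, a GATA transcription factor gene, at -4.21 ± 0.45. The other genes among the 15 lowest were Tymp at -4.76, 4921513I03Rik at -4.70, 2900016B01Rik at -4.67, Ibsp at -4.28, Ly6k at -4.26, Vwa7 at -4.16 and Ccdc127 at -4.10. For Ccdc127 the spots of the first array disagreed, at 0.55 and -10.61. Extreme single spots were mostly on the array with LPS in Cy5, where 12 spots lay at or above 8 and 27 at or below -8, against 2 and 0 on the reversal. Of 229 genes past the rule that were chosen for description by rank, list or fixed set, 28 had a spot at 0 or on the other side of it, which the SD between arrays does not show. Beside those whose spots or oligonucleotides are described with the gene, these were Arl1, Gaa, Gins1, Med10, Mrpl33, Mrpl9, Saa3, Srp14, Tuba1a and Vps35. Genes named outside that choice, such as Irgm1, Mcm5 and Rpl38, were not checked spot by spot in this way.

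Genes that sense LPS lay mostly near the centre, as did most genes measured. Of 23 measured genes of LPS sensing and toll-like receptor signalling, 1 was higher and 1 was lower (4.35% each way). Of all genes 8.74% were higher and 5.77% lower, and these shares stand beside every list count below. The list median was 0.31, or -1.08 when centred on abundant transcripts. Tlr4 itself lay at 1.94 on the unreversed array and at -0.43 on the reversal, so its arrays took opposite signs (0.76 ± 1.67). Its 2 oligonucleotides lay at 0.15 and 1.37. Cd14, which delivers LPS to the receptor, lay at 1.23 and 0.38 (0.81 ± 0.60), and Ly96 at 0.37 and -0.32 (0.02 ± 0.48). Ikbkb, the kinase that marks the inhibitor of NF-kB for degradation, was the higher gene and had close arrays, at 1.30 and 1.22 (1.26 ± 0.05), though its mean is below 0 with the abundant centring. The adaptor Myd88 was the lower gene, at -0.86 and -1.25 (-1.05 ± 0.28).

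Of 17 measured NF-kB subunits and feedback inhibitors, 2 were higher (11.8%) and 1 was lower (5.88%), shares near the 8.74% and 5.77% of all genes, with a list median of -0.22 beside a median near 0 over all genes. The subunit genes Rela (0.08 ± 0.25), Rel (-0.39) and Nfkb2 (-0.26) were not past the rule. Ier3, an immediate early gene that NF-kB induces, lay at 1.65 and 0.89 (1.27 ± 0.54). Nfkbiz, an atypical nuclear inhibitor, lay at 1.28 and 1.01 (1.15 ± 0.19), and both genes have means below 0 when centred on abundant transcripts. Nfkbia, the classical inhibitor IkB-alpha, lay at 1.26 and 0.66 (0.96 ± 0.43), above 0 on both arrays but short of 2-fold. Tnip1, a partner of Tnfaip3 in restraining NF-kB, was 3.52-fold lower, and its 4 spots agreed closely, at -1.88 and -1.76 on the first array and -1.72 and -1.90 on the reversal (mean -1.81 ± 0.01). Tnfaip3, the ubiquitin-editing enzyme A20, lay on the same side at -0.81 and -1.01 (-0.91 ± 0.14). No value of Nfkb1 was analysed here.

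Chemokines, which attract leukocytes, did not stand out from the background of 8.74% higher genes. Of 34 measured, 2 were higher (5.88%) and 0 lower, and the list median was -0.10, with 9 genes above 0 on both arrays and 13 below 0 on both. Cxcl12, a chemokine of stromal and endothelial cells, lay at 1.54 and 1.06 (1.30 ± 0.34). Ccl7, which attracts monocytes, lay at 1.28 and 0.75 (1.01 ± 0.37). Both means lie below 0 when the abundant transcripts are the centre. The other chemokines often followed in endothelium gave smaller values. Ccl5, a ligand of T cells and monocytes, lay at 0.48 and 1.0 (0.74 ± 0.37), the neutrophil chemokine Cxcl2 at 0.92 and 0.10 (0.51 ± 0.58), and the monocyte chemokine Ccl2 at 0.39 and 0.34 (0.36 ± 0.03). Cxcl10, an interferon-induced chemokine, lay at 0.20 and 0.15 (0.17 ± 0.04), and Cxcl1 at 0.08 and -0.24 (-0.08 ± 0.22). The spots of Cxcl10 lay at -0.37 and 0.77 on the first array and at -0.26 and 0.56 on the reversal.

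Cytokines and growth factors lay low as a list. Of 54 measured genes, 7 were lower (13.0%, against 5.77% of all genes) and 2 were higher, 36 lay below 0 on both arrays and 9 above 0 on both, and the median was -0.25. The largest ratios downwards were those of growth factors and of a bone-remodelling cytokine. Pgf, the placental growth factor of the VEGF family, had spots at -4.36 and -4.15 and on the reversal at -3.58 and -3.62 (-3.93 ± 0.46). Tnfsf11, the cytokine RANKL, had both spots of the first array at -3.51 and those of the reversal at -3.12 and -3.41 (-3.39 ± 0.17). Vegfa, the main vascular endothelial growth factor, lay at -1.48 and -2.46 (-1.97 ± 0.69). Fgf2 followed at -1.31 ± 0.73, the EGF receptor ligand Ereg at -1.18 on each array, Inhba at -1.09 ± 0.25 and Il17a at -1.01 ± 0.39. The 2 higher genes were Il33, an alarm cytokine of endothelial and other barrier cells, at 1.54 and 1.49 (1.51 ± 0.03), and Ccn2, a matrix-associated growth factor, at 1.53 and 1.11 (1.32 ± 0.29, below 0 with the abundant centring). The classical inflammatory cytokines were not past the rule. Il6 lay at -0.77 and -0.59 (-0.68 ± 0.12), Csf3 at -0.59 and -0.74 (-0.66 ± 0.11) and Csf2 at -0.51 and -0.31 (-0.41 ± 0.15), so these 3 were below 0 on both arrays. Il1b (-0.22 ± 0.73) and Tnf (-0.08 ± 0.44) took opposite signs on the arrays.

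Leukocyte adhesion genes had 1 higher (4.76%) and 2 lower (9.52%) of 21 measured, with a median of -0.11 that turned to 0.04 without the array with LPS in Cy5. F11r, the junctional adhesion molecule JAM-A, lay at 3.23 and 1.13 (2.18 ± 1.49). Itgal, the leukocyte integrin chain of LFA-1, was lower at -1.89 ± 0.44, and Cd200, an inhibitory ligand of myeloid cells, at -1.22 ± 0.24. The inducible endothelial adhesion molecules were small in ratio, with Vcam1 at 0.80 and 0.08 (0.44 ± 0.51), E-selectin (Sele) at 0.32 and 0.23 (0.28 ± 0.07) and the selectin gene Selp, for P-selectin, at -0.29 and 0.08 (-0.11 ± 0.26). No value of Icam1 was analysed here.

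Among acute phase and complement genes, 1 of 25 was higher and 1 lower (4% each way), with a median of 0.00. Saa3, an acute phase serum amyloid that LPS induces in many cells, lay at 1.16 and 1.42 (1.29 ± 0.19), below 0 with the abundant centring. C4b of the complement cascade lay at -1.27 ± 0.29, and Lcn2, a siderophore-binding protein gene, at 0.01 ± 0.18. Of 19 prostaglandin and nitric oxide genes, only Ptgds, a prostaglandin D synthase gene, was past the rule, at 3.73 and 1.19 (2.46 ± 1.80). Ptgs2, the inducible cyclooxygenase, lay at -0.31 ± 0.03, the inducible nitric oxide synthase Nos2 at -0.89 ± 0.71 and the endothelial synthase Nos3 at -0.61 ± 0.14. The mitochondrial dismutase Sod2 took opposite signs on the arrays, at 0.29 and -0.29.

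Immediate early genes, which respond to many stimuli within the first hour, had 3 higher and 1 lower of 33 (9.09% higher, near the background of 8.74%). Fos lay at 1.87 ± 0.28, but its oligonucleotides disagreed: the spots of one lay between 3.44 and 4.11 and those of the other between -0.19 and 0.14. The dual-specificity phosphatases Dusp6 (1.73 ± 1.18) and Dusp2 (1.71 ± 0.76), which switch MAP kinases off, were also higher. Each rests on part of its spots: the paired spots of Dusp6 lay at 5.57 and -0.44 on the first array and at 1.96 and -0.16 on the reversal, and the oligonucleotides of Dusp2 at 3.17 and 0.25. The stress-response gene Gadd45b lay at -1.41 ± 1.02. Jun (-0.40 ± 0.51), Egr1 (-0.08 ± 0.20), Atf3 (-0.18 ± 0.22), Myc (-0.05 ± 0.25) and Zfp36, which destabilises cytokine mRNAs (-0.55 ± 0.45), were not past the rule.

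**Figure D2:**
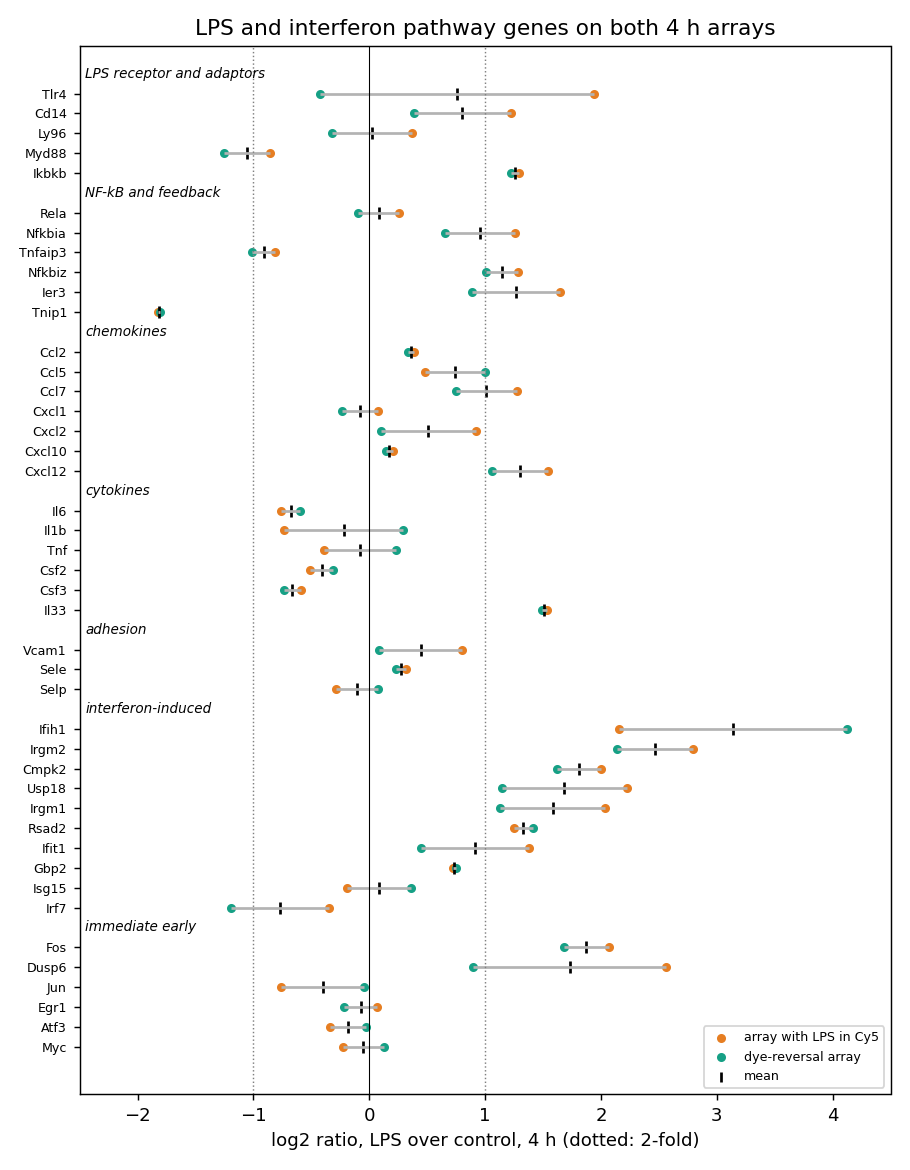
Log2 ratios of LPS over control at 4 h for genes of LPS sensing, NF-kB feedback, chemokines, cytokines, adhesion, interferon response and immediate early response, with the array with LPS in Cy5 in orange, the dye reversal in green and their mean as a black tick. Values are relative to each array's median spot, and centring on abundant transcripts moves all points left by 1.39; Tnip1 and Il33 have nearly equal arrays, while the arrays of Tlr4 lie on opposite sides of 0.

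Of 54 measured interferon-induced genes, 15 were higher (27.8%, against 8.74% of all genes) and 0 were lower, 33 were above 0 on both arrays and 6 below 0 on both, and the median was 0.53, or -0.85 when centred on abundant transcripts. The largest ratio was that of Ifi27l2a, a small interferon-induced membrane protein gene, 29.3-fold higher. Its spots lay at 2.85 and 5.84 on the first array and at 3.44 and 7.36 on the reversal (4.87 ± 0.75). Ifitm3, which blocks entry of enveloped viruses, had spots at 6.63 and 4.47 and on the reversal at 3.01 and 2.35 (4.11 ± 2.03). Ifih1, the sensor of double-stranded RNA known as MDA5, had spots at 1.76 and 2.55 and on the reversal at 4.05 and 4.20 (3.14 ± 1.39). All spots of these genes were high, and the array that gave the larger ratio differed between them.

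Of 10 interferon-inducible GTPases, a family that acts on membranes around intracellular pathogens, 3 were higher, with a median of 0.40 over the 10. Irgm2 was 5.52-fold higher, at 2.80 and 2.14 (2.47 ± 0.47), Irgm1 lay at 2.04 and 1.13 (1.58 ± 0.64) and Ifi47 at 1.89 and 1.12 (1.5 ± 0.55). The antiviral enzyme genes Cmpk2, at 2.0 and 1.62 (1.81 ± 0.27), and Rsad2, at 1.25 and 1.41 (1.33 ± 0.12), had close arrays. Usp18, the protease that removes ISG15 from proteins, lay at 1.69 ± 0.76, the ubiquitin ligase gene Trim25 at 1.70 ± 0.55, Ifi35 at 1.72 ± 1.14 and the nucleic acid sensor gene Zbp1 at 1.51 ± 0.21. Stat2, a transcription factor of the interferon signal, lay at 1.60 and 0.68 (1.14 ± 0.66), the RNA-editing enzyme gene Adar at 1.06 ± 0.17 and Ifi211 at 1.06 ± 0.09. Rsad2, Stat2, Adar and Ifi211 are below 0 under the abundant centring. Oligonucleotides of the Ifi200, Irgm and Ifitm families may share signal with related genes.

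Other members of the interferon list were not past the rule. None of the 5 measured IFIT and OAS genes was, and Ifit1 came nearest at 1.38 and 0.45 (0.91 ± 0.66). Gbp2, a guanylate-binding protein gene, lay at 0.72 and 0.75 (0.74 ± 0.02), Irf1 at 0.30 ± 0.14 and Isg15 at -0.19 and 0.36 (0.08 ± 0.39). Irf7 lay below 0 on both arrays, at -0.35 and -1.19 (-0.77 ± 0.60), and the lowest member was Iigp1, itself such a GTPase, at -1.0. On the 24 h arrays the same list had 18 genes higher, against 1.68% of all genes at that time, and a median of 0.69; whether the times differ was not tested.

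The promoters of these genes were searched for the interferon-stimulated response element, GAAA, any 2 bases and GAAA on either strand, which factors of the interferon signal bind. The windows run from 250 bases before to 50 after each start site in RefSeq (build GRCm38.p6), and 8849 of the 11138 genes had at least 1, for 11173 windows. The element was in 3.16% of all windows and in 40.4% of the 57 windows of the interferon list. Within that list it was in 7 of 14 windows of higher genes (50.0%) and in 16 of 43 windows of genes not past the rule (37.2%). It was in 3.95% of windows of all higher genes and 2.54% of those of lower genes. A match describes letters in the window and is neither a tested site nor a cause. The 250 bases before the start are shown for 4 interferon-induced genes past the rule, 5′ to 3′ on the gene's strand, with matches in capitals. Irgm2 is at chr11:58214727-58214976 (plus strand), Irgm1 at chr11:48871421-48871670 (minus), Rsad2 at chr12:26456453-26456702 (minus) and Stat2 at chr10:128270248-128270497 (plus).
Irgm2: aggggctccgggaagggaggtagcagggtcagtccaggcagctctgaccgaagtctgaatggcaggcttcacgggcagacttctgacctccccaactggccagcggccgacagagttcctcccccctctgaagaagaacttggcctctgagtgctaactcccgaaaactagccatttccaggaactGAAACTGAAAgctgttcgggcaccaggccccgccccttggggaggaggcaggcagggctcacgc
Irgm1: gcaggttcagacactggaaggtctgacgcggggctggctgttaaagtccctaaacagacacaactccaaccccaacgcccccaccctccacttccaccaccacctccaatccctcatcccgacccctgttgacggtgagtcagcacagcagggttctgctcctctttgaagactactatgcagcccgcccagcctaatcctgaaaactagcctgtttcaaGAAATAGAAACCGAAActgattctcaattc
Rsad2: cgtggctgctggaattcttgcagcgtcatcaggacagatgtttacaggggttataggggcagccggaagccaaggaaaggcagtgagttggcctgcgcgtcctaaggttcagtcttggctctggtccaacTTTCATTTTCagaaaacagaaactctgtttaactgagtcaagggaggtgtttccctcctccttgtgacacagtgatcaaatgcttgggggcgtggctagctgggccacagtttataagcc
Stat2: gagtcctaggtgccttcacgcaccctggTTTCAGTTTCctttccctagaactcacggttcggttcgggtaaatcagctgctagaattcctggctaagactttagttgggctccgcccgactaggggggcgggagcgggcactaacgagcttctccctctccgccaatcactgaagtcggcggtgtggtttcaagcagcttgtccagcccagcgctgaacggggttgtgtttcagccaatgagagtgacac
In Irgm1, 2 overlapping matches begin 30 and 24 bases before the start. Those of Irgm2, Rsad2 and Stat2 begin 64, 120 and 222 bases before it, and in Rsad2 and Stat2 the match is on the opposite strand.

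The NF-kB motif (GGGA, any base, TT, any base, CC, both strands) was rarer, in 1.30% of all windows, 1.09% of those of higher genes and 1.90% of those of lower genes. Of 28 chemokine windows 3 held it (10.7%), those of Cxcl1, Cxcl2 and Cxcl10. The promoters below are shown because they carry the motif while their genes had ratios on both sides of 0. Cxcl2 (0.51) is at chr5:90903649-90903898 (plus), Cxcl1 (-0.08) at chr5:90890995-90891244 (plus), Nfkbia (0.96) at chr12:55492648-55492897 (minus) and Tnip1 (-1.81) at chr11:54962941-54963190 (minus).
Cxcl2: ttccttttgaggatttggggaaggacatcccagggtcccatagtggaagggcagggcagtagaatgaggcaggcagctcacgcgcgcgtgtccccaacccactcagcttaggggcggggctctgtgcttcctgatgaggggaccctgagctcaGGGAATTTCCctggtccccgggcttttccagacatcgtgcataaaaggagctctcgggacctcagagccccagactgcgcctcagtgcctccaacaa
Cxcl1: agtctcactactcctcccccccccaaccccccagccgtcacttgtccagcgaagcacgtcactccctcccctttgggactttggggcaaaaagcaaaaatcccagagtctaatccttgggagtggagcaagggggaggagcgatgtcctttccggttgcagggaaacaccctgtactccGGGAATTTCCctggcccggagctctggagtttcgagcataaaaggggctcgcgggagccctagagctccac
Nfkbia: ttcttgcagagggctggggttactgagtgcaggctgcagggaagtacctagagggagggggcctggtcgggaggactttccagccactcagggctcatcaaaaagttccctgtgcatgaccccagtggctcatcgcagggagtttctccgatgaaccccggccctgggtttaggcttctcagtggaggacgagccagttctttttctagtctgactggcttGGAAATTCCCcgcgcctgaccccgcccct
Tnip1: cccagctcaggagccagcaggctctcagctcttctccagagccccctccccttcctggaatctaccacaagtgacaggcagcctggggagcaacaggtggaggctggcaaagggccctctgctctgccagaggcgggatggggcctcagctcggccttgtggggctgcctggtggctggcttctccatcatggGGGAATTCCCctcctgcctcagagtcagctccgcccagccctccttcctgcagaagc
The matches begin 97, 71, 29 and 57 bases before the start, in that order, and the one in Nfkbia is on the opposite strand. None of these 4 genes was higher by the rule.

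Class I antigen presentation, which shows peptides from inside the cell to CD8 T cells, had 7 of 23 genes higher (30.4%) and 0 lower. The median was 0.51, or -0.88 with the abundant centring. The heavy chains made up most of it, with 6 of 11 higher and a median of 1.49. H2-Q7 lay at 4.10 and 3.14 (3.62 ± 0.69), H2-K1 at 5.27 and 1.89 (3.58 ± 2.39), H2-T22 at 3.76 and 2.73 (3.25 ± 0.72) and H2-D1 at 2.33 and 3.54 (2.94 ± 0.85). H2-Q1 (1.81 ± 0.62) and H2-Q2 (1.49 ± 0.30) followed. H2-K1, H2-D1 and H2-T22 are each measured by more than 1 oligonucleotide, with means of 3.45 to 3.71, 1.74 to 4.14 and 2.68 to 4.36. The 2 oligonucleotides of H2-Q1 disagreed, with spots between 2.75 and 4.91 for one and from -0.34 to just below 0 for the other, and H2-D1 had 1 spot at -0.24. Heavy chain genes are near-identical over long stretches, so their oligonucleotides may share signal. B2m, the light chain of every class I molecule, lay at 1.21 without meeting the rule. The peptide transporter genes Tap1 (-0.27) and Tap2 (0.26) and the immunoproteasome gene Psmb8 (-0.03) were not past it, and Canx, a chaperone of heavy chains, lay at 1.05 ± 0.48, below 0 with the abundant centring.

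Together with these, 48 lists held 1789 genes, of which 320 were higher and 86 lower. The medians of 31 lists were above 0, and 10 lists had no lower gene. With the abundant centring 29 of those 31 medians lay below 0, and those of the cytosolic ribosomal proteins (0.71) and of the abundant transcripts themselves (0.09) did not. The abundant transcripts lie near 0 there by construction, because their own median on each array is what is subtracted. That centring subtracts 1 constant from each array, so the order of the lists stays as it is.

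**Figure D3:**
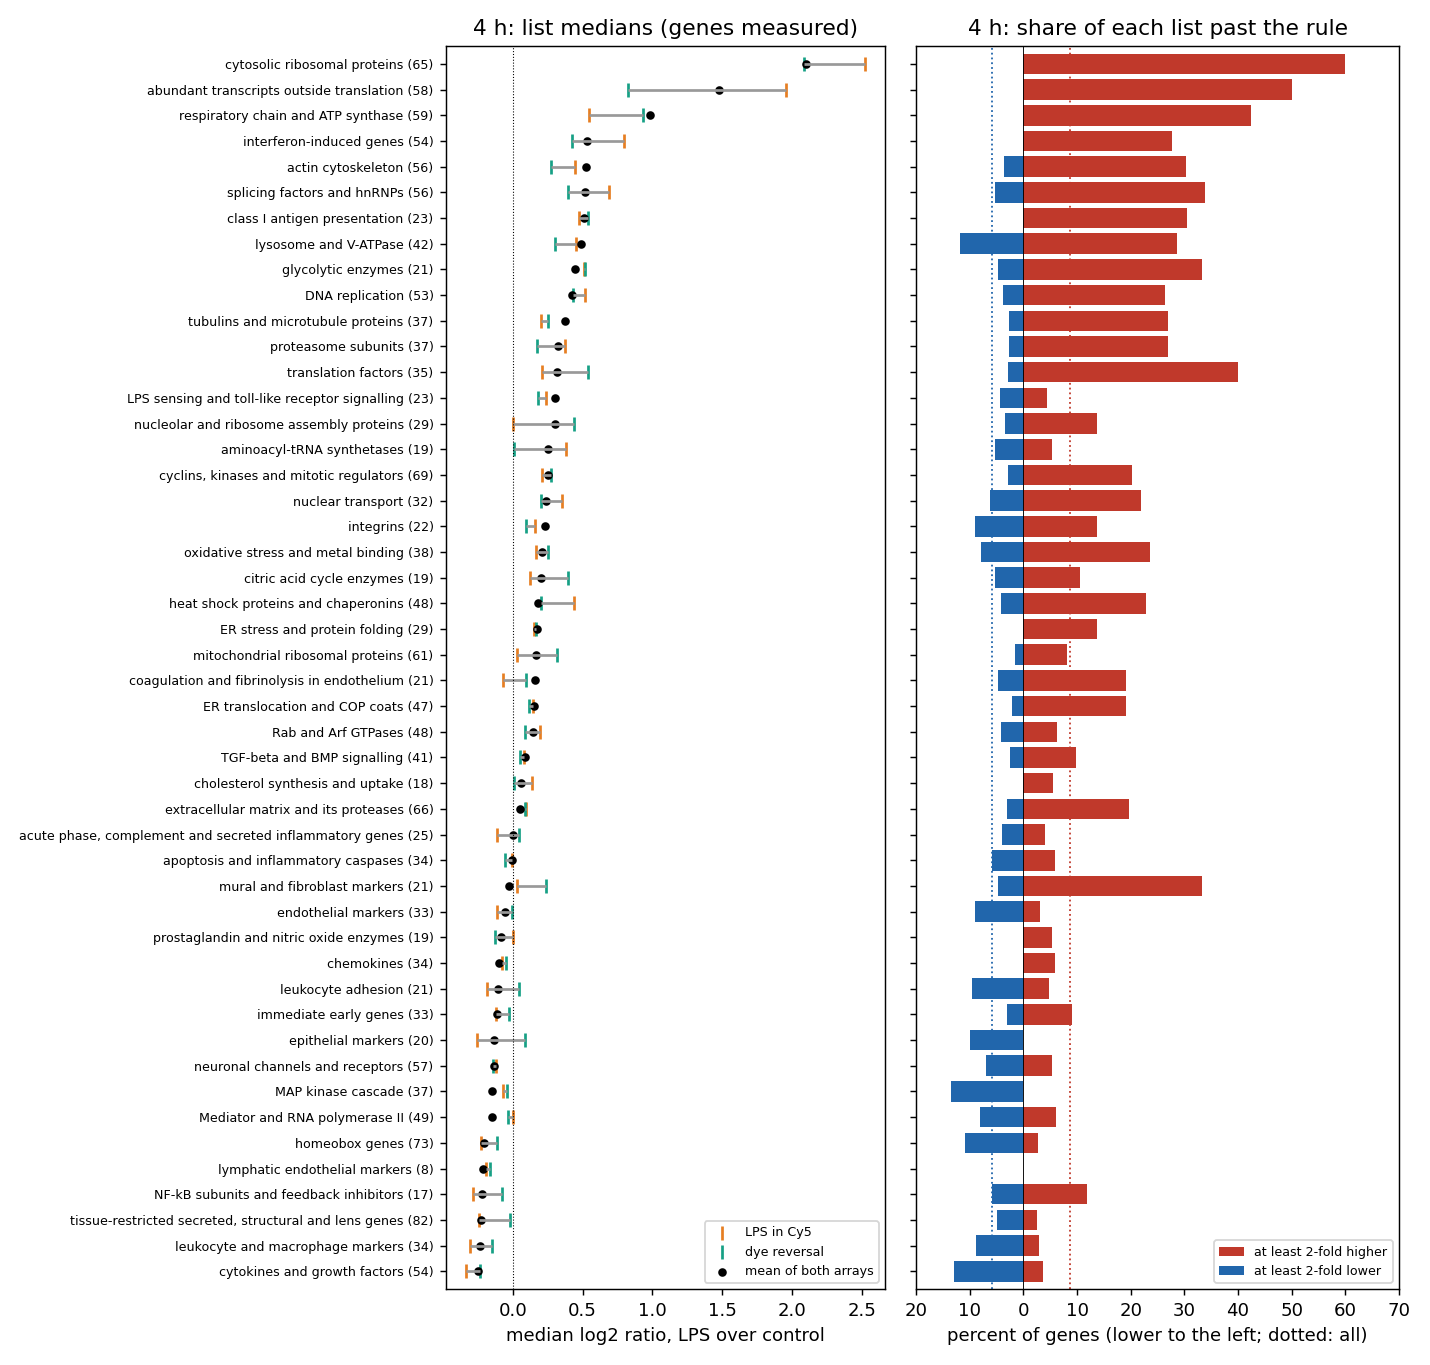
On the left, the median log2 ratio of each of 48 gene lists at 4 h (black, over the mean of both arrays) with the medians on each array as coloured ticks; on the right, the percent of each list past the rule, higher in red and lower in blue, with dotted lines at the 8.74% and 5.77% of all genes. Cytosolic ribosomal proteins (median 2.10) and abundant transcripts (1.48) stand highest and cytokines and growth factors (-0.25) lowest. With the abundant centring each median is lower by 1.39. Only the ribosomal proteins and the abundant transcripts then stay above 0, and the latter lie near 0 by construction.

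Genes of the ribosome gave the highest list. Of 65 cytosolic ribosomal protein genes, 39 were higher (60%) and 0 lower, with a median of 2.10, or 0.71 with the abundant centring. The large subunit had 26 of 40 higher with a median of 2.20, and the small subunit 13 of 24 with a median of 1.84. Rpl6, a large-subunit protein gene, lay at 6.14 and 4.39 (5.27 ± 1.24), Rps3 at 6.30 and 3.40 (4.85 ± 2.05), Rps7 at 6.12 and 2.87 (4.5 ± 2.29), Rpl21 at 5.03 and 3.35 (4.19 ± 1.19) and the stalk protein gene Rplp1 at 4.97 and 3.15 (4.06 ± 1.29). In each of these the array with LPS in Cy5 was the larger. Rpl38 was even, at 3.77 and 3.96 (3.87 ± 0.13), and Rpl11, which also binds Mdm2, lay at 3.29 and 2.70 (3.0 ± 0.42). The list was not uniform, since 9 members lay below 0 on both arrays and the lowest was at -1.51. Ribosomal protein genes have many processed pseudogenes, and signal may be shared with them.

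The ribosomal proteins of mitochondria differed from this. Of 61 measured, 5 were higher (8.20%, near the background of 8.74%) and 1 was lower, with a median of 0.16. Mrpl45 lay at 2.71 ± 0.30, Mrpl9 at 2.43 ± 1.42, Mrps30 at 1.89 ± 1.40 and Mrpl33 at 1.72 ± 0.53, while Mrpl34 was lower at -2.28 ± 0.17.

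Translation factors had 14 of 35 genes higher (40.0%) and 1 lower, with a median of 0.31, or -1.08 with the abundant centring. Beside Pabpc1, Eif4g2 lay at 5.47 and 3.81 (4.64 ± 1.18), Eif3c, a subunit of initiation factor eIF3, at 6.68 and 2.10 (4.39 ± 3.24), Tpt1 at 5.09 and 3.58 (4.34 ± 1.07) and the elongation factor gene Eef1a1 at 5.21 and 3.45 (4.33 ± 1.24). Further eIF3 subunits were Eif3i at 2.76 ± 1.11 and Eif3k, with close arrays, at 2.56 ± 0.19. Eif6, which keeps the ribosomal subunits apart, was lower at -1.08 ± 0.44. Of 19 aminoacyl-tRNA synthetase genes, Nars was higher (1.61 ± 0.39) and Hars2 lower (-2.03 ± 1.13). Of 29 genes of the nucleolus and ribosome assembly, 4 were higher and 1 lower. Their median was 0.30 and -0.00 on the array with LPS in Cy5 alone, with Npm1 (nucleophosmin) at 3.25 ± 1.13, Nop2 at 1.74 ± 1.04, Wdr12 at 1.49 ± 0.25 and Ncl (nucleolin) at 1.06 ± 0.50, and Nop16 at -1.63 ± 0.87.

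Genes of the mitochondrial respiratory chain and ATP synthase came after the cytosolic ribosomal proteins and the abundant transcripts. Of these, 25 of 59 were higher (42.4%) and 0 lower, with a median of 0.98, or -0.41 with the abundant centring. The complexes were unequal. Complex IV had 7 of 10 higher (median 1.60) and ATP synthase 9 of 14 (1.48), whereas complex I had 7 of 27 (0.47) and complex III with cytochrome c 2 of 8 (0.52). Atp5b, the catalytic beta subunit of ATP synthase, lay at 6.92 and 3.20 (5.06 ± 2.63), the complex IV subunit gene Cox6a1 at 4.32 and 2.70 (3.51 ± 1.14), Atp5j at 3.90 and 1.84 (2.87 ± 1.46), and the complex I subunit genes Ndufa13 at 4.05 and 1.66 (2.85 ± 1.69) and Ndufc1 at 2.68 and 3.01 (2.85 ± 0.23). Cox8a (2.79 ± 1.61) and Cox5a (2.75 ± 0.63) also stood high. Citric acid cycle enzymes had 2 of 19 higher and 1 lower: the succinyl-CoA ligase genes Suclg1 (2.54 ± 1.56) and Sucla2 (1.25 ± 0.35, below 0 with the abundant centring), and Dlst (-2.69), whose arrays lay at -4.60 and -0.78.

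Glycolytic enzymes had 7 of 21 higher (33.3%) and 1 lower, with a median of 0.44, or -0.95 with the abundant centring. Gapdh lay at 5.10 and 3.68 (4.39 ± 1.0), the pyruvate kinase gene Pkm at 4.68 and 2.55 (3.61 ± 1.51), Pgam1 at 4.79 and 2.25 (3.52 ± 1.80), Aldoa at 2.05 and 2.12 (2.08 ± 0.05) and Pgk1 at 2.67 and 1.42 (2.04 ± 0.88). The spots of Aldoa lay at 0.39 and 3.71 on the first array and at 2.64 and 1.60 on the reversal. Gapdh and Actb are often used as reference genes. Actb, a cytoplasmic actin gene, lay at 3.52 on the first array and -0.01 on the reversal, where 1 of its spots was at a ratio of exactly 1.

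Splicing factors and hnRNPs had 19 of 56 higher (33.9%) and 3 lower, with a median of 0.52, or -0.87 with the abundant centring. Among SR proteins, which guide splice site choice, 5 of 9 were higher, led by Srsf9 at 3.19 ± 1.45 and Srsf2 at 2.86 ± 0.32. Srsf2 has 3 oligonucleotides, all above 0, with means from 1.92 to 3.60. Among Sm and snRNP proteins, 6 of 16 were higher, with Snrpe at 3.14 ± 1.14 and Snrpf at 2.92 ± 0.61, and 2 were lower, with Snrnp48 of the minor spliceosome at -3.52 and -4.13 (-3.82 ± 0.44). Nuclear transport genes had 7 of 32 higher and 2 lower, with a median of 0.24 (-1.15 with the abundant centring). The importin genes Kpna2 (3.95 ± 1.04) and Kpnb1 (2.35 ± 1.64) and the GTPase gene Ran (3.15 ± 0.25), which drives transport, stood high with the pore protein gene Nup62 (1.80 ± 0.26), while the pore scaffold gene Nup205 lay at -1.78 ± 0.89. Mediator and RNA polymerase II genes had 3 of 49 higher (6.12%) and 4 lower (8.16%), near the 8.74% and 5.77% of all genes, and a median of -0.15. Med17 (3.13 ± 0.02) and Polr2e (3.13 ± 1.02) were high, and Taf13 (-2.25 ± 1.34), Med10 (-1.79 ± 0.77) and Med26 were low.

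DNA replication genes had 14 of 53 higher (26.4%) and 2 lower, with a median of 0.42, or -0.97 with the abundant centring. The MCM helicase, which opens the double helix at replication forks, had 4 of 7 subunit genes higher and a median of 2.16. Mcm2 lay at 3.31 and 2.38 (2.85 ± 0.66), Mcm4 at 2.88 and 2.53 (2.70 ± 0.24), Mcm5 at 2.48 and 2.03 (2.25 ± 0.32) and Mcm6 at 2.88 and 1.44 (2.16 ± 1.02). The highest of the list were Gins1, a partner of the helicase, at 3.17 and 4.52 (3.84 ± 0.95), and Dut, which clears dUTP, at 4.61 and 2.97 (3.79 ± 1.16). Rpa3, of the single-strand binding complex, lay at 2.48 ± 0.24. Cdc45 was higher at 1.39 ± 0.01 and lies at the abundant centre itself, whereas Cdc6, which loads the helicase, was lower at -1.37 and -1.35 (-1.36 ± 0.02).

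E2F motifs (TTTCGCGC, TTTGGCGC or TTTCCCGC, both strands), bound by the E2F factors of the cell cycle, were in 2.69% of all promoter windows, in 3.75% of those of higher genes and 1.75% of those of lower genes, and in 25.5% of the 55 windows of the replication list. Mcm5 at chr8:75109259-75109508 (plus) and Mcm6 at chr1:128359706-128359955 (minus) are shown because both subunit genes were higher and their promoters hold more than 1 match. Overlapping matches run together in capitals.
Mcm5: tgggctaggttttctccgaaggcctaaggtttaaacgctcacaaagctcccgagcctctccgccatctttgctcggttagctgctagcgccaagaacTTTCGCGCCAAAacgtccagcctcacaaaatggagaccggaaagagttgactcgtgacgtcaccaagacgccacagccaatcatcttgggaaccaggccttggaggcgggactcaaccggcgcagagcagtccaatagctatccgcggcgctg
Mcm6: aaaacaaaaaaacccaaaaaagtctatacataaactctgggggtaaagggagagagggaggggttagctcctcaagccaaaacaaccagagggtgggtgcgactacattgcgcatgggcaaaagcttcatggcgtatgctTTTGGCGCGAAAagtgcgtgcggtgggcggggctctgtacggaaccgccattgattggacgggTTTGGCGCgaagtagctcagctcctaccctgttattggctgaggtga
Mcm5 has 2 matches, beginning 153 and 149 bases before the start, and Mcm6 has 3, the first beginning 110 and the last 47 bases before it.

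Cyclins, kinases and mitotic regulators had 14 of 69 higher (20.3%) and 2 lower, with a median of 0.25, or -1.14 with the abundant centring. Cdk4, the kinase of the G1 phase, lay at 3.58 and 3.38 (3.48 ± 0.14), Ect2, which drives cytokinesis, at 4.14 and 2.60 (3.37 ± 1.09), Cks2 at 2.35 and 2.22 (2.28 ± 0.09), the mitotic kinase gene Cdk1 at 3.13 and 1.13 (2.13 ± 1.42) and Ccng1, a target of p53, at 2.11 ± 0.57. The spots of Cks2 lay at 3.20 and 1.49 on the first array and at 0.97 and 3.47 on the reversal. Of the whole list, 40 genes lay above 0 on both arrays and 15 below 0 on both.

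Protein quality control genes were higher in part. Proteasome subunits had 10 of 37 higher (27%) and 1 lower, with a median of 0.33 (-1.06 with the abundant centring), and the higher genes lay in the core and in the regulatory particle. Psmb1 was at 3.27 ± 0.44, Psma6 at 2.60 ± 0.73, the deubiquitinase gene Psmd14 at 2.25 ± 0.74 and Psmb5 at 2.05 ± 0.61, while Psmb6 was at -2.86 ± 1.70. Heat shock proteins and chaperonins had 11 of 48 higher and 2 lower, with a median of 0.18 (-1.21 with the abundant centring). The CCT chaperonin, which folds actin and tubulin, had 5 of 8 subunit genes higher: Cct8 at 2.53 ± 1.29, Cct3 at 2.04 ± 0.85, Cct5 at 1.65 ± 0.29, Cct6a at 1.15 ± 0.40 and Cct7 at 1.02 ± 0.59, the last 2 below 0 with the abundant centring. Hspa8, the constitutive HSP70, had close arrays at 2.59 and 2.46 (2.53 ± 0.10), as did the mitochondrial chaperonin Hspd1 at 2.33 and 2.27 (2.30 ± 0.04). The spots of Hspd1 were wider apart, at 3.13 and 1.52 and on the reversal at 2.78 and 1.75. Dnaja1, a partner of HSP70, lay at 2.47 ± 0.47, and Pfdn1 of prefoldin was lower at -3.37 ± 0.59.

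In the secretory pathway, 9 of 47 genes of ER translocation and COP coats were higher and 1 lower (median 0.15, and -1.24 with the abundant centring). Sec61g of the translocation channel lay at 2.50 ± 1.47, Srp9 at 2.29 ± 1.63 and Srp14 at 1.73 ± 0.25 of the signal recognition particle, the coat protein gene Sec13 at 2.01 ± 0.83 and Copb1 at 1.90 ± 0.31. ER stress and folding genes had 4 of 29 higher and 0 lower. P4hb, a protein disulfide isomerase, lay at 5.19 and 3.42 (4.31 ± 1.26), the ER chaperone gene Hyou1 at 0.64 and 3.96 (2.30 ± 2.35) and Ppib, an ER cyclophilin, at 1.06 ± 0.33, which is below 0 with the abundant centring. Of 48 Rab and Arf GTPases 3 were higher and 2 lower. Arl1 (2.78 ± 0.36) and Rab1a (2.18 ± 1.41), both of the Golgi, were high, Arf4 was at 1.14 ± 0.37 (below 0 with the abundant centring), and the secretory Rab3d (-2.29 ± 0.29) and Rab3c (-2.43 ± 0.23) were low.

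Lysosomal and V-ATPase genes had 12 of 42 higher (28.6%) and 5 lower (11.9%), with a median of 0.49 (-0.90 with the abundant centring). Ctsl, a cathepsin, lay at 4.71 and 1.84 (3.28 ± 2.03), Atp6ap2 at 2.80 ± 0.75 and Ctsa at 2.51 ± 2.29, whereas the glucosidase gene Gaa (-1.90 ± 0.94) and the proton pump subunit gene Atp6v1d (-1.93 ± 0.02) were low. The V-ATPase was split, with 3 of 12 subunit genes higher and 3 lower. Oxidative stress and metal-binding genes had 9 of 38 higher and 3 lower (median 0.21, and -1.18 with the abundant centring). The peroxiredoxin gene Prdx4 lay at 6.0 and 2.14 (4.07 ± 2.73) with both oligonucleotides high (3.50 and 4.64), Prdx2 at 2.89 ± 1.55, the ferritin heavy chain gene Fth1 at 2.36 and 2.56 (2.46 ± 0.14, with spots of -0.70 and 5.43 on the first array), Gstp1 at 2.12 ± 1.94 and the iron exporter gene Slc40a1 at 1.77 ± 1.05. In cholesterol and lipid synthesis the desaturase gene Scd2 (2.03 ± 0.48) was the only 1 of 18 past the rule.

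Actin cytoskeleton genes had 17 of 56 higher (30.4%) and 2 lower, with a median of 0.52 (-0.87 with the abundant centring). Arpc5 of the branching Arp2/3 complex lay at 4.45 and 3.67 (4.06 ± 0.55), calponin 3 (Cnn3) at 3.08 and 3.58 (3.33 ± 0.35), the monomer-binding thymosin gene Tmsb4x at 2.74 and 3.47 (3.11 ± 0.52), ezrin (Ezr) at 2.82 ± 1.49 and Actg1, the other cytoplasmic actin, at 2.79 and 2.53 (2.66 ± 0.18) with 3 oligonucleotides between 1.34 and 3.62. Tubulin and microtubule genes had 10 of 37 higher and 1 lower (median 0.38, and -1.01 with the abundant centring), with the autophagy gene Map1lc3b at 3.09 ± 0.08, the dynein light chain gene Dynll1 at 2.30 ± 0.60, Tuba1a at 2.24 ± 0.16 and Tubb4b at 1.90 ± 1.1; the lower one was Ndel1. Among 22 integrin and focal adhesion genes, 3 were higher and 2 lower. Itgb1, the common beta chain, lay at 4.44 and 3.10 (3.77 ± 0.94), zyxin (Zyx) at 4.64 and 2.54 (3.59 ± 1.49) and the kinase gene Ilk at 1.42 and 1.44 (1.43 ± 0.01). The fibronectin receptor chain Itga5 (-1.61 ± 0.35) and Itgb5 (-2.22 ± 1.88) were lower.

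Extracellular matrix genes and proteases were split between a high group and the centre: 13 of 66 were higher (19.7%) and 2 lower, yet the median was 0.05, or -1.34 with the abundant centring, with 28 genes above 0 on both arrays and 23 below 0 on both. Sparc, a collagen-binding matricellular protein gene, lay at 5.09 and 2.65 (3.87 ± 1.73), Lox, which crosslinks collagen, at 3.52 and 3.33 (3.42 ± 0.14) and Timp3, a metalloproteinase inhibitor, at 4.16 and 2.45 (3.31 ± 1.21). Collagens had 4 of 13 higher and 1 lower, led by Col3a1 at 4.64 and 1.46 (3.05 ± 2.25).

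In the MAP kinase cascade 0 of 37 genes were higher and 5 were lower (13.5%, against 5.77%), with a median of -0.15. The lower genes were Mark2, which acts on microtubule-associated proteins and is no kinase of the cascade although the list holds it, the JNK kinase genes Mapk8 (-1.83 and -2.40, mean -2.12 ± 0.40) and Mapk9 (-1.34 and -1.42, mean -1.38 ± 0.06), Map4k1 (-1.28 ± 0.51) and Nras (-1.24 ± 0.38). Without Mark2 4 of 36 genes were lower (11.1%), with a median of -0.10. TGF-beta and BMP genes had 4 of 41 higher (9.76%, near the 8.74% of all genes), Bmp1 (1.59 ± 1.04), Bmp6 (1.5 ± 0.30), the inhibitor of differentiation Id3 (1.47 ± 1.01) and Ltbp3 (1.14 ± 0.44, below 0 with the abundant centring), and 1 lower, the BMP antagonist Grem1 (-1.35 ± 0.20). Apoptosis genes had 2 of 34 each way (5.88%, against 8.74% higher and 5.77% lower of all genes). Casp4, the mouse caspase-11 that binds intracellular LPS, lay at 1.28 and 2.78 (2.03 ± 1.06; its reversal spots lay at 5.61 and -0.04) and Bad at 1.30 ± 0.64, while Bak1 (-1.15 ± 0.43) and Casp2 (-1.57 ± 0.32) were lower; Bad is below 0 with the abundant centring.

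Among 21 coagulation genes of endothelium, 4 were higher (19.0%) and 1 lower (4.76%), and the median of 0.16 became -0.07 on the array with LPS in Cy5 alone. Procr, which binds protein C on endothelium, had values of 2.58 and 1.84 (2.21 ± 0.52), and the annexin genes Anxa5 lay at 1.83 ± 0.30 and Anxa2 at 1.61 ± 1.01 and Gas6 at 1.31 ± 0.24 (below 0 with the abundant centring). The thrombin receptor gene F2r was lower at -1.26 ± 0.28. Tissue factor (F3, 0.15 ± 0.48) and thrombomodulin (Thbd, 0.16 ± 0.36) took opposite signs on the arrays.

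Among genes of other tissues, homeobox genes had 2 of 73 higher and 8 lower (11%, against 5.77% of all genes), with a median of -0.21 and 35 genes below 0 on both arrays. Dlx5 lay at -3.58 and -3.91 (-3.75 ± 0.24), the cardiac factor gene Nkx2-5 at -2.5 ± 0.55, and Pax3 (-1.85 ± 0.41), Pax4 (-1.73 ± 0.24) and Pitx3 (-1.54 ± 0.09) followed. Tissue-restricted secreted, structural and lens genes had 2 of 82 higher and 4 lower (4.88%) with a median of -0.23, and neuronal channels and receptors 3 of 57 higher and 4 lower (7.02%), both near the background of lower genes, with a median of -0.14. Gabra2, a GABA receptor subunit gene, lay at -3.52 ± 0.80 and Cacna1b, a neuronal calcium channel gene, at -1.64 ± 0.48, whereas the serotonin receptor gene Htr1a lay at 1.35 and 4.04 (2.70 ± 1.90) and Kcnj6 at 1.70 ± 0.65. Scgb1a1 of airway secretory cells (-1.68 ± 0.59), Krt1 (-1.41 ± 0.87) and Mbp (-1.10 ± 0.57) were lower, and the insulin gene Ins2 (1.73 ± 0.07) and the globin gene Hba-a1 (1.16 ± 0.11, below 0 with the abundant centring) were higher. The 2 oligonucleotides of Ins2 had opposite signs, with spots from 3.84 to 4.67 and from -1.19 to -0.55, so its small SD covers the arrays only. Those of Kcnj6 were split in the same way (2.05 to 4.97 and -0.58 to -0.07), the spots of Hba-a1 ran from -0.71 to 5.26, and Htr1a had 1 spot near 0. The part of transcript abundance in these differences was not tested, since the files held no levels; the list of 58 abundant transcripts had 29 higher (50.0%), 0 lower and a median of 1.48.

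The labelled cell type could not be checked by marker levels, because a ratio between treated and control cells holds no level. Of 33 measured endothelial markers, 1 was higher and 3 were lower, with a median of -0.06. Cdh5, VE-cadherin of endothelial junctions, lay at -4.97 and -1.98 (-3.47 ± 2.12), but its 2 oligonucleotides disagreed: the spots of one lay between 0.01 and 0.46, and those of the other at -9.96 and -10.09 on the first array and at -4.40 and -4.42 on the reversal. Plvap, of the diaphragms of fenestrated endothelium, lay at -1.43 ± 0.69, the venous marker Ephb4 at -1.34 ± 0.15 and Nrp1, a VEGF co-receptor, at 1.42 ± 0.45. The mean of Plvap rests on 1 spot, at -3.83 and -2.68 on the arrays, while its other spot lay at 0 and 0.80. Pecam1 (-0.20 ± 0.28) and the VEGF receptor gene Kdr (0.25 ± 0.06) lay near the centre. The spots of Kdr on the first array lay at -0.34 and 0.76. In such a bulk comparison, fewer cells of a kind and less RNA per cell cannot be told apart.

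Markers of other cells were measured as well. Of 34 leukocyte and macrophage markers, Mpo was higher (1.26 ± 0.91, with 1 of its oligonucleotides below 0 on both arrays, and below 0 with the abundant centring) and Ly6g (-1.26 ± 0.24), Zap70 (-1.11 ± 0.08) and Elane (-1.0 ± 0.30) were lower, with a median of -0.24. Of 8 lymphatic endothelial markers, 0 were past the rule (median -0.21). Of 20 epithelial markers, 0 were higher and Cldn3 (-1.66 ± 0.56) and Pkp3 (-1.25 ± 0.32) were lower, with a median of -0.13 that was 0.08 on the reversal alone. Mural and fibroblast markers had 7 of 21 higher (33.3%) and 1 lower, with a median of -0.03. They were Col3a1, Pdgfra (1.92 ± 1.15), Vim (1.90 ± 0.56), S100a4 (1.75 ± 0.86), Dcn (1.70 ± 0.19), Acta2 and Col1a1, several of them also in the matrix and actin lists above; the part of a change in cell make-up was not tested.

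Genes measured by 2 or more oligonucleotides allow 1 sequence to be set beside another. There were 929 such genes, of which 78 were higher and 44 lower. All oligonucleotides were on the gene's side of 0 in 60 of the 78 and 39 of the 44, and all were at least 2-fold in 26 and 10. These genes were picked by the mean over the same oligonucleotides, so part of this agreement follows from the rule. The share over all such genes was not counted. The highest with all on the same side were Prdx4, Ppp2ca (a catalytic subunit of phosphatase 2A) at 3.75 ± 0.18, H2-K1, H2-T22, the retromer gene Vps35 at 3.02 ± 0.54, H2-D1, Srsf2, Maged1 at 2.77 ± 0.79, Actg1 and the RNA helicase gene Ddx3x at 2.65 ± 0.56. The lowest were Ndel1, Atl3 at -2.62 ± 0.37, the ubiquitin ligase scaffold Cul5 at -2.21 ± 0.63, Clasp2 at -2.19 ± 0.72, Cox7a1 at -2.18 ± 0.60, Klk1b26 at -2.15 ± 0.20, Pcgf5 at -2.03 ± 0.05, the chloride transporter gene Clcn7 at -1.94 ± 0.49, Them5 at -1.86 ± 0.14 and Sez6 at -1.85 ± 0.49. Agreement in sign did not mean agreement in size: the oligonucleotides of Atl3 lay at -5.14 and -0.10 and those of Pcgf5 at -3.97 and -0.10. Those of Cox7a1 lay at -4.08 and -0.27. For 1 oligonucleotide of Sez6 the spots lay at -0.21 on the first array and at -4.25 and 0.04 on the reversal. Spots of a gene that share 1 annotated sequence record were taken as 1 oligonucleotide. Between the spots of such pairs (12092 pairs), r was 0.62 on the first array and 0.50 on the reversal. Every spot lay on the gene's side of 0 on both arrays for 805 of the 973 higher genes and 559 of the 643 lower ones. This too follows in part from the rule, which uses the mean of the same spots.

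Promoters of the higher genes differed a little from the rest in base composition. Their windows held a median of 20 CpG dinucleotides, against 16 in all windows and 16 in those of lower genes, and those of the ribosomal protein genes held 22 and those of the interferon list 7. The ETS motif CCGGAAG (both strands) was in 16.9% of windows of higher genes, 13.2% of those of lower genes and 12.8% of all, and in 36.9% of the 65 windows of ribosomal protein genes. The TATAAA box was in 9.68% of windows of higher genes, 11.6% of those of lower genes and 10.8% of all, and in 32.1% of the chemokine windows. The AP-1 motif TGANTCA, also plotted, was searched on both strands in the same way. These shares are descriptions of sequence and were not tested.

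**Figure D4:**
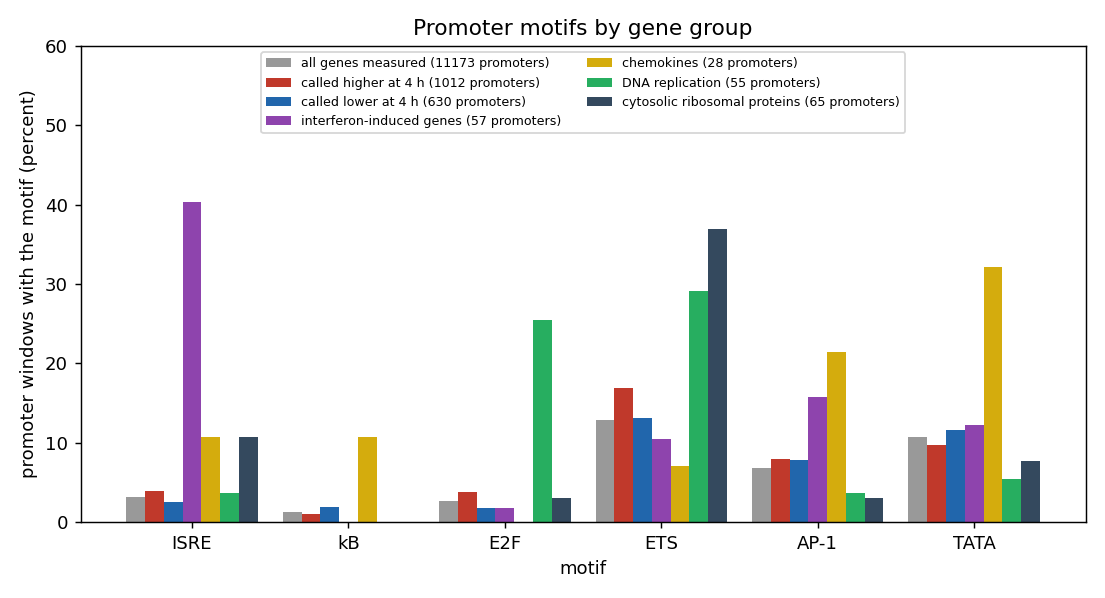
Percent of promoter windows (250 bases before to 50 after the start) that hold each of 6 motifs on either strand, for all measured genes, genes past the rule each way and 4 gene lists, with the number of windows in the key. The interferon-stimulated response element (ISRE) reaches 40.4% in the interferon list and the E2F motif 25.5% in the replication list, against 3.16% and 2.69% of all windows.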

How the data were processed

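The deposited table held a log2 ratio of the dyes per spot for each array, with no intensities. How the authors scanned, corrected and normalized the arrays is not stated in the labels used here, and the log2 scale was read from the deposited values. Control and LPS-treated RNA was amplified before labelling, per the labels. The dye reversal was multiplied by -1, each array was set to a median of 0, both were averaged per spot, and spots with exactly 1 gene symbol averaged per gene (24344 of 32448 spots; 98 had several symbols and 8006 none). No filter on faint spots was possible. The arrays held 5307 and 2041 spots whose ratio was exactly 1, which were kept. Symbols came from the platform annotation, and the Entrez numbers of 98.9% of named spots were found in RefSeq; the promoters are from RefSeq (GRCm38.p6).

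A gene was past the rule at a mean of at least 1 with each array at least 1.5-fold the same way. There was no test, because 1 RNA pair leaves no residual degree of freedom. The code was run on simulated spots with known ratios, as a check of the calculation only. The simulated noise was permuted between spots, so the run gives no error rate for these arrays. The 48 gene lists, their sub-groups and the genes described were chosen with earlier results of these data known. Named were the 15 highest and 15 lowest genes past the rule, the 10 highest and 10 lowest with 2 or more oligonucleotides of the same sign, up to 5 members past the rule with the largest size in each list, and a set of LPS-response, endothelial and reference genes; any other name was picked after its value was seen. The alternatives tried were other centres and scales, quantile normalization, ratios of exactly 1 as missing, the median over spots, other thresholds and each array alone. Computation used Python 3.11.15 with pandas 2.3.3, numpy 2.4.6 and matplotlib 3.10.9.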

Additional observations from a re-analysis of the deposited data

Results flagged for a closer look

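Some genes named above were past the rule at 4 h while both 24 h arrays lay on the other side of 0. The share of all genes past the rule with this pattern was not counted. Over all genes the 24 h means ran from -0.26 at the 25th percentile to 0.29 at the 75th. A small 24 h value on the other side is therefore no sign of a reversal. Each is given with its mean log2 ratio at 4 h and then at 24 h, and the difference between the times was not tested. Higher at 4 h were Clec12b (5.74 and -0.04), Atp5b (5.06 and -0.08), Rps7 (4.5 and -0.29), Prdx4 (4.07 and -0.61), Gins1 (3.84 and -0.15), Zyx (3.59 and -0.39), Timp3 (3.31 and -0.28), Arl1 (2.78 and -0.78), Mrpl45 (2.71 and -0.14), Eif3k (2.56 and -0.08), Cks2 (2.28 and -0.23), Gstp1 (2.12 and -0.18), Scd2 (2.03 and -0.70), Slc40a1 (1.77 and -0.83), Srp14 (1.73 and -0.66), Mrpl33 (1.72 and -0.60), Zbp1 (1.51 and -0.11), Nrp1 (1.42 and -0.50), Cdc45 (1.39 and -1.22), Cct6a (1.15 and -0.27) and Ppib (1.06 and -1.01). Lower at 4 h were 2900016B01Rik (-4.67 and 0.37), Ccdc127 (-4.10 and 0.15), Snrnp48 (-3.82 and 1.25), Dlst (-2.69 and 0.29), Rab3c (-2.43 and 0.27), Klk1b26 (-2.15 and 0.20), Vegfa (-1.97 and 0.40), Tnip1 (-1.81 and 1.54), Nup205 (-1.78 and 0.07), Casp2 (-1.57 and 0.48), Zap70 (-1.11 and 0.17), Myd88 (-1.05 and 0.18) and Elane (-1.0 and 0.44). Tnip1, an inhibitor of NF-kB signalling, went furthest above 0 at 24 h among the lower genes, and Cdc45, a replication gene, furthest below 0 among the higher ones. At 24 h fewer genes were past the rule, 187 higher (1.68%) and 89 lower (0.799%), and most of these 24 h means were small.

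Some spots without a gene symbol also carried signal. Of 2554 unnamed spots that lie among the named ones, 6.66% were higher and 6.58% lower by the same rule applied to spots, close to the 8.70% and 5.82% of named spots, and their arrays correlated at 0.40 against 0.36. The 5550 unnamed spots after the last named one gave a correlation of -0.0031 between the arrays and an SD of 1.88 and 2.11. By the same rule 5.35% of them were still higher and 2.34% lower. A further 8.92% reached its sizes with the arrays on opposite sides, against 2.06% of named spots. Spots whose arrays do not correlate can therefore meet the rule.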

How the results depend on the processing

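Of 973 higher and 643 lower genes, scaling both arrays to one median absolute deviation gave 972 and 645. Quantile normalization of all 4 arrays together gave 745 and 537. Ratios of exactly 1 as missing gave 994 and 684, and the median over spots 962 and 636. No gene past the rule turned in sign under these settings. The quantile normalization took in the 24 h arrays, whose SD over spots was smaller (0.98 and 1.07). With scaling, and with each array alone, none could turn, because the rule already demands both arrays on the same side of 0. Centring on abundant transcripts gave 206 higher and 6907 lower genes, since it subtracts 1.96 and 0.82 from the arrays, and 289 genes past the rule turned in sign. Among named genes, 24 turned: Adar (-0.33), Arf4 (-0.25), Bad (-0.085), Canx (-0.34), Ccl7 (-0.38), Ccn2 (-0.070), Cct6a (-0.24), Cct7 (-0.37), Cdc45 (-0.0037), Cxcl12 (-0.088), Gas6 (-0.082), Hba-a1 (-0.23), Ier3 (-0.12), Ifi211 (-0.33), Ikbkb (-0.13), Ltbp3 (-0.25), Mpo (-0.13), Ncl (-0.33), Nfkbiz (-0.24), Ppib (-0.33), Rsad2 (-0.062), Saa3 (-0.10), Stat2 (-0.25) and Sucla2 (-0.14). Leaving out each array in turn gave 1376 to 1476 higher and 996 to 1007 lower genes, where the demand on each array falls away. A mean of at least 3-fold gave 569 and 306, 4-fold 364 and 166, 2-fold on each array 690 and 416, and only genes with 2 or more oligonucleotides 78 and 44. Faint spots could not be removed and the direction is likely only. No paired analysis was possible because the labels name no separate cultures, both arrays were taken as 1 RNA pair, and the result comes from no test.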

Other observations

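Agreement between the arrays differed by the kind of accession behind the oligonucleotide. Over genes, the arrays correlated at 0.66 for 5899 genes with other GenBank accessions, at 0.42 for 2106 with RefSeq NM accessions, at 0.33 for 3207 with AK full-length cDNA clones and at 0.32 for 404 with BC accessions. Spots at a ratio of exactly 1 on the array with LPS in Cy5 made up 3.14%, 16.9%, 23.6% and 20.9% of these classes in the same order. The share of higher genes was 8.19%, 12.1%, 7.08% and 13.1%. Genes are not independent replicates, the classes were set after the values were seen, and the cause was not tested.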
